A study of Arabidopsis thaliana with 12 samples.

Results

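The 3 genes described here encode proteins of the plastid ribosome in Arabidopsis thaliana: AT1G64510 for S6 and AT3G13120 for S10 of the small subunit, and AT3G54210 for L17 of the large subunit. The 3 genes were chosen with earlier results of these data known. Each had 1 array probe that carried its name alone, so they are 3 of the 689 genes that could be named from a single-gene probe. Of the other plastid ribosomal protein genes listed, 3 had such a probe too. Transcripts were measured in total RNA of wild-type plants of ecotype Columbia 0, in 6 samples from plants moved at the end to high CO2 of 1% (v/v) for 6 d and in 6 samples from plants at normal CO2, which carry the label 0 d. The labels name no organ and no age at harvest, and the effects of CO2 and of 6 further days cannot be told apart. They also do not say whether samples of one label are separate cultures of plants. The p-values may then rest on technical spread alone.

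Plastids make part of their proteins on their own ribosomes, which resemble those of bacteria. The plastid genome encodes some of the ribosomal proteins and the nucleus the others, so small and large subunits are assembled from the products of both genomes. In bacteria, S6 sits with S18 on the platform of the small subunit, S10 lies in the head of the small subunit and also acts in transcription antitermination, and L17 lies near the exit of the tunnel through which the new peptide leaves the large subunit. Plastid translation supplies the core subunits of the photosystems and the large subunit of Rubisco, and its ribosomal proteins are most needed in green tissue. Of 8 antenna genes listed as markers of green tissue, 1 had a single-gene probe, LHB1B2. None of the 3 root-type plastid genes listed had one. After quantile normalization LHB1B2 lay between 4.40 and 5.17 in the high-CO2 samples and between 2.25 and 2.68 in the normal-CO2 samples. Groups without overlap were found in 8.33% of the probes tested. The size of the LHB1B2 difference depended on the scaling. Its log2 difference was 1.04 after quantile normalization (limma adjusted p = 0.00261), in a fit that 12.5% of probes passed. As deposited it was 0.94 (limma adjusted p = 0.00946), where 391 of 3375 probes passed. After quantile normalization it was 1.06 in samples 1 to 4 of each group and 0.997 in samples 5 and 6. With each sample scaled to the same median it was 0.35 and did not pass (limma adjusted p = 0.424). Whether the samples differed in green tissue was not tested.

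Values below are deposited intensities after quantile normalization, on a linear scale. Because probes differ in how strongly they bind their transcript, the level of one probe was not set against that of another, and small and large subunit are compared only by how each varies over the samples. Within each group, consecutive samples (1 with 2, 3 with 4, 5 with 6) looked like repeats, since the closest match of all 12 samples was this partner, with r across probes of at least 0.919. The last pair of each group stood apart. Across probes, high-CO2 samples 5 and 6 were closer to normal-CO2 samples 1 to 4 (r of 0.901 or more) than to the rest of their own group (r up to 0.866), and for normal-CO2 samples 5 and 6 no r with samples outside their pair exceeded 0.803 among samples 1 to 4 of either group. The differences of the 3 genes are therefore also given over the means of these pairs and for samples 1 to 4 and samples 5 and 6 apart. Sample medians of the deposited values spanned 0.174 to 0.390 in the high-CO2 group and 0.160 to 0.256 in the normal-CO2 group, so the scaling matters as well.

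The first question was whether the transcripts of the 3 proteins differed between high and normal CO2. None of the 3 passed the limma test after Benjamini-Hochberg adjustment over all 3349 probes tested, a test that 12.5% of probes passed. With limma over pair means 0 probes passed (408 at unadjusted p under 0.05). With the pairs as a random effect 0 passed too (511 at unadjusted p under 0.05). Every call given here, that of LHB1B2 included, therefore counts partner samples as independent. S6 had the lowest p of the 3 and was lower in 5 of 6 high-CO2 samples than in every normal-CO2 sample. S10 in all high-CO2 samples lay below normal-CO2 samples 1 to 4 and above normal-CO2 samples 5 and 6. L17 had overlapping groups, with its 2 highest values in high-CO2 samples 5 and 6. In none of the 3 genes were the groups of 6 fully separated, as they were in 8.33% of probes.

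AT1G64510, for S6, had intensities of 0.158, 0.0918, 0.344, 0.149, 0.179 and 0.141 in high-CO2 samples 1 to 6, against 0.255, 0.279, 0.210, 0.283, 0.275 and 0.257 in normal-CO2 samples 1 to 6. The normal-CO2 samples lay close together, and the high-CO2 samples were spread widely: sample 3 was the highest of all 12 samples, and the other 5 were below every normal-CO2 sample. A pattern with at least 5 of 6 samples beyond the other group was met by 15.3% of the probes tested. S6 averaged 0.177 ± 0.0868 over the high-CO2 samples and 0.260 ± 0.0269 over the normal-CO2 samples (SD, n = 6 each), with a log2 difference of -0.67 (95% confidence interval -1.23 to -0.10, SE 0.26; limma adjusted p = 0.107). On the linear scale this was 0.63 times the normal-CO2 level, with an interval from 0.426 to 0.932. Over pair means S6 lay at 0.125, 0.246 and 0.160 in the high-CO2 pairs and at 0.267, 0.247 and 0.266 in the normal-CO2 pairs, and the limma adjusted p was 0.452. In samples 1 to 4 of each group the log2 difference was -0.63 (limma adjusted p = 0.223). In samples 5 and 6 it was -0.74 (limma adjusted p = 0.0426), over 2 samples a group that resemble repeats. The fit on samples 5 and 6 was passed by 48.7% of probes.

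Whether the S6 difference passed depended on which samples entered, and its size also on the scaling. It stayed negative in every setting run, from -0.88 to -0.09. Without high-CO2 sample 3 the log2 difference was -0.88 and passed (limma adjusted p = 0.0291), in a fit that 230 of 3349 probes passed. The partner of that sample, sample 4, lay at 0.149. High-CO2 samples 1 and 2 also differed for S6, at 0.158 and 0.0918. For S10, high-CO2 samples 3 and 4 lay at 0.525 and 0.711. The S6 probe was dim, with a mean of 0.219 over the 12 samples. Its lowest value, 0.0918, lay above the floor of 0.0398 set before taking log2. The part of low signal in the spread of S6 and of its ratios was not tested. With values as deposited, which spanned 0.0904 to 0.507 in the high-CO2 samples and 0.131 to 0.289 in the normal-CO2 samples, the log2 difference was -0.09 (adjusted p = 0.893). After median scaling it was -0.67 (adjusted p = 0.112).

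**Figure D1:**
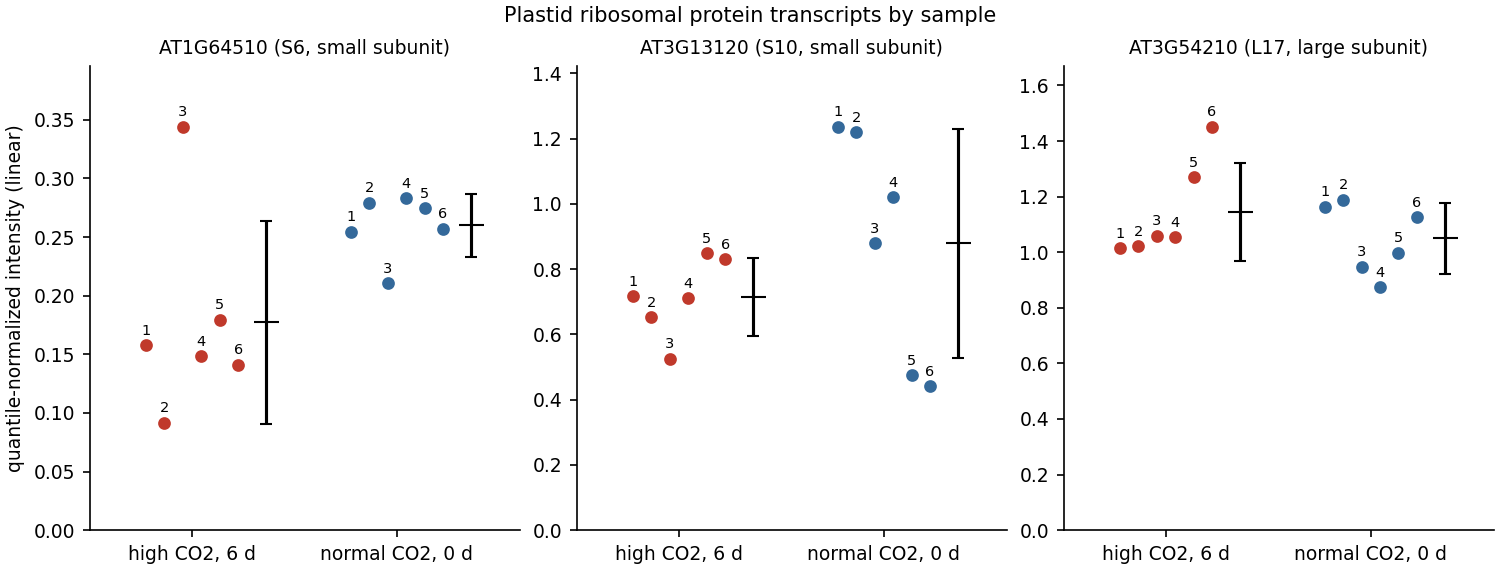
Quantile-normalized intensity (linear axis from 0) of AT1G64510, AT3G13120 and AT3G54210 in each of the 12 samples, high CO2 left of normal CO2, numbered by sample, with mean and SD as bars (n = 6 each). For S6, 5 of 6 high-CO2 points lie below all normal-CO2 points and sample 3 lies above them at 0.344. For S10, normal-CO2 samples 5 and 6 lie at 0.475 and 0.442, under all high-CO2 points.

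AT3G13120, for S10, had intensities of 0.717, 0.653, 0.525, 0.711, 0.848 and 0.830 in high-CO2 samples 1 to 6, against 1.24, 1.22, 0.880, 1.02, 0.475 and 0.442 in normal-CO2 samples 1 to 6. Normal-CO2 samples 1 to 4 were above all high-CO2 samples, and normal-CO2 samples 5 and 6 were below all of them. S10 averaged 0.714 ± 0.119 over the high-CO2 samples and 0.879 ± 0.352 over the normal-CO2 samples (SD, n = 6 each), and the log2 difference of -0.20 (95% confidence interval -0.81 to 0.41; limma adjusted p = 0.664) was smaller than the spread between samples. The pair means of S10 were 0.685, 0.618 and 0.839 in the high-CO2 group and 1.23, 0.950 and 0.458 in the normal-CO2 group, and the limma adjusted p over them was 0.855.

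For S10 the direction depended on which samples entered, and the size also on the scaling. The log2 difference was -0.04 as deposited (limma adjusted p = 0.924) and -0.62 after median scaling (limma adjusted p = 0.289). In samples 1 to 4 of each group the log2 difference was -0.74 (limma adjusted p = 0.00941), in a fit in which 37.9% of probes passed. It was also lower without normal-CO2 samples 5 and 6 and with all high-CO2 samples kept (-0.61, limma adjusted p = 0.0424, with 14.4% of probes passing). In samples 5 and 6 of each group it was 0.87 (limma adjusted p = 0.00679), a value over 2 samples a group that resemble repeats, in a fit that 48.7% of probes passed. Same-numbered samples of the groups are not read as pairs. High-CO2 samples 5 and 6, at 0.848 and 0.830, were still below normal-CO2 samples 1 to 4. Opposite signs in samples 1 to 4 and in samples 5 and 6 were shared by 49.3% of the 3349 probes tested. The part that the standing apart of samples 5 and 6 has in the S10 result was not tested.

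AT3G54210, for L17, had intensities of 1.01, 1.02, 1.06, 1.05, 1.27 and 1.45 in high-CO2 samples 1 to 6, against 1.16, 1.19, 0.948, 0.875, 0.999 and 1.13 in normal-CO2 samples 1 to 6. High-CO2 samples 5 and 6 were the 2 highest of the 12, and high-CO2 samples 1 to 4 lay within the range of the normal-CO2 samples. L17 averaged 1.14 ± 0.177 over the high-CO2 samples and 1.05 ± 0.128 over the normal-CO2 samples (SD, n = 6 each). The log2 difference was 0.12, with a 95% confidence interval from -0.22 to 0.46 (limma adjusted p = 0.634), which on the linear scale runs from 0.86 to 1.38 times the normal-CO2 level. Its sign turned after median scaling, to -0.33 (adjusted p = 0.443). In samples 1 to 4 the difference was 0.0029 (limma adjusted p = 0.994) and in samples 5 and 6 it was 0.36 (limma adjusted p = 0.0987). The pair means of L17 were 1.02, 1.06 and 1.36 in the high-CO2 group and 1.18, 0.911 and 1.06 in the normal-CO2 group, with a limma adjusted p of 0.877.

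**Figure D2:**
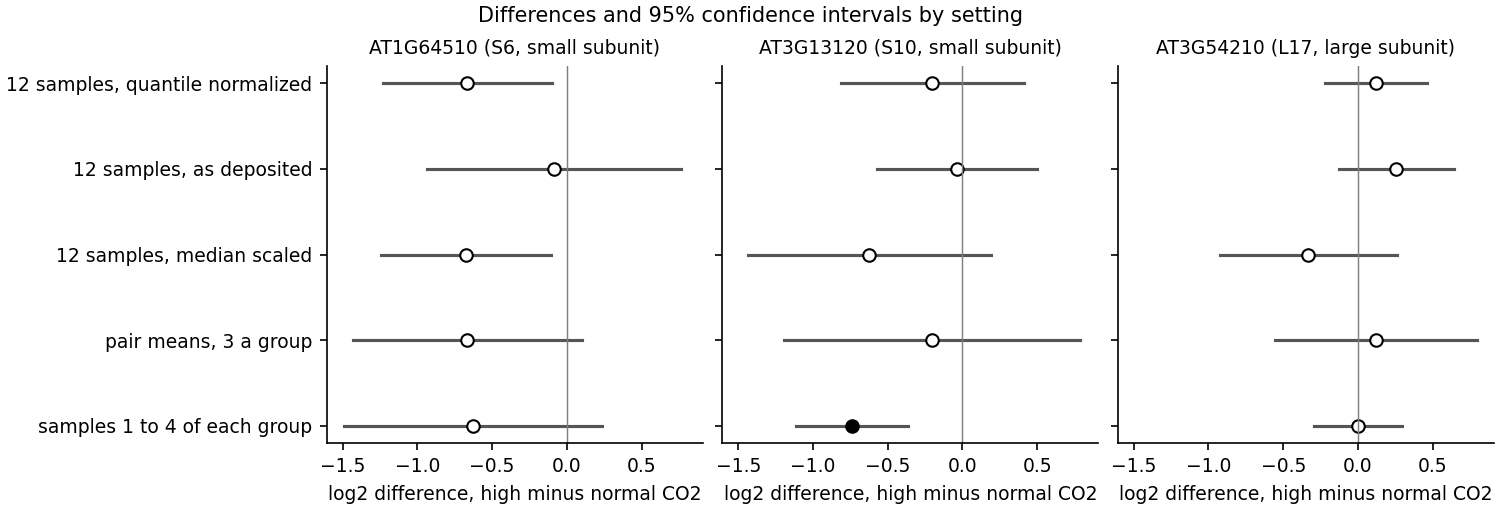
Log2 difference of high minus normal CO2 with its 95% confidence interval for each gene, under 3 scalings of the 12 samples, over pair means and in samples 1 to 4 of each group; a filled point passed the limma test after adjustment. S10 in samples 1 to 4 (-0.74) is the only filled point, and the S6 value moves from -0.67 after quantile normalization to -0.09 as deposited.

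The second question was whether small-subunit and large-subunit transcripts shifted against each other. The log2 ratio of 2 probes was taken in each sample and set to a mean of 0 over the 12 samples, so that only unequal change is read from it. Since the genes were picked with results known, these ratios carry no p-value. S6 over L17 was lower at high CO2 in 5 of 6 samples. S10 over L17 in all high-CO2 samples lay below normal-CO2 samples 1 to 4 and above normal-CO2 samples 5 and 6. S6 over S10 overlapped between the groups.

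The log2 ratio of S6 over L17 was -0.28, -1.07, 0.78, -0.42, -0.42 and -0.96 in high-CO2 samples 1 to 6, against 0.21, 0.32, 0.23, 0.78, 0.54 and 0.28 in normal-CO2 samples 1 to 6. All normal-CO2 samples were above 0, and all high-CO2 samples but sample 3 were below 0. This ratio averaged -0.39 ± 0.66 over the high-CO2 samples and 0.39 ± 0.22 over the normal-CO2 samples (SD, n = 6 each), which differ by -0.79. The difference was -0.34 both as deposited and after median scaling, since dividing a sample by its median leaves the ratio of 2 of its probes unchanged. Without high-CO2 sample 3 it was -1.02. It was -0.63 in samples 1 to 4 of each group and -1.10 in samples 5 and 6. Averaging partners first leaves the differences of all 3 ratios as they are.

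The log2 ratio of S10 over L17 was 0.03, -0.12, -0.49, -0.04, -0.06 and -0.28 in high-CO2 samples 1 to 6, against 0.61, 0.56, 0.42, 0.75, -0.55 and -0.82 in normal-CO2 samples 1 to 6. Normal-CO2 samples 1 to 4 were above every high-CO2 sample, and normal-CO2 samples 5 and 6 were below every one. It averaged -0.16 ± 0.19 over the high-CO2 samples and 0.16 ± 0.67 over the normal-CO2 samples (SD, n = 6 each), so the difference of -0.32 was smaller than the spread at normal CO2. It was -0.74 in samples 1 to 4 of each group and 0.52 in samples 5 and 6.

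Between the 2 small-subunit genes, the log2 ratio of S6 over S10 spanned -0.95 to 1.27 in the high-CO2 group and -0.40 to 1.10 in the normal-CO2 group. High-CO2 sample 3, at 1.27, and normal-CO2 samples 5 and 6, at 1.09 and 1.10, were the highest 3. The difference of the group means, -0.47, was smaller than the SD of either group (0.78 at high CO2 and 0.68 at normal CO2). It was -0.05 as deposited, 0.11 in samples 1 to 4 of each group and -1.61 in samples 5 and 6.

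**Figure D3:**
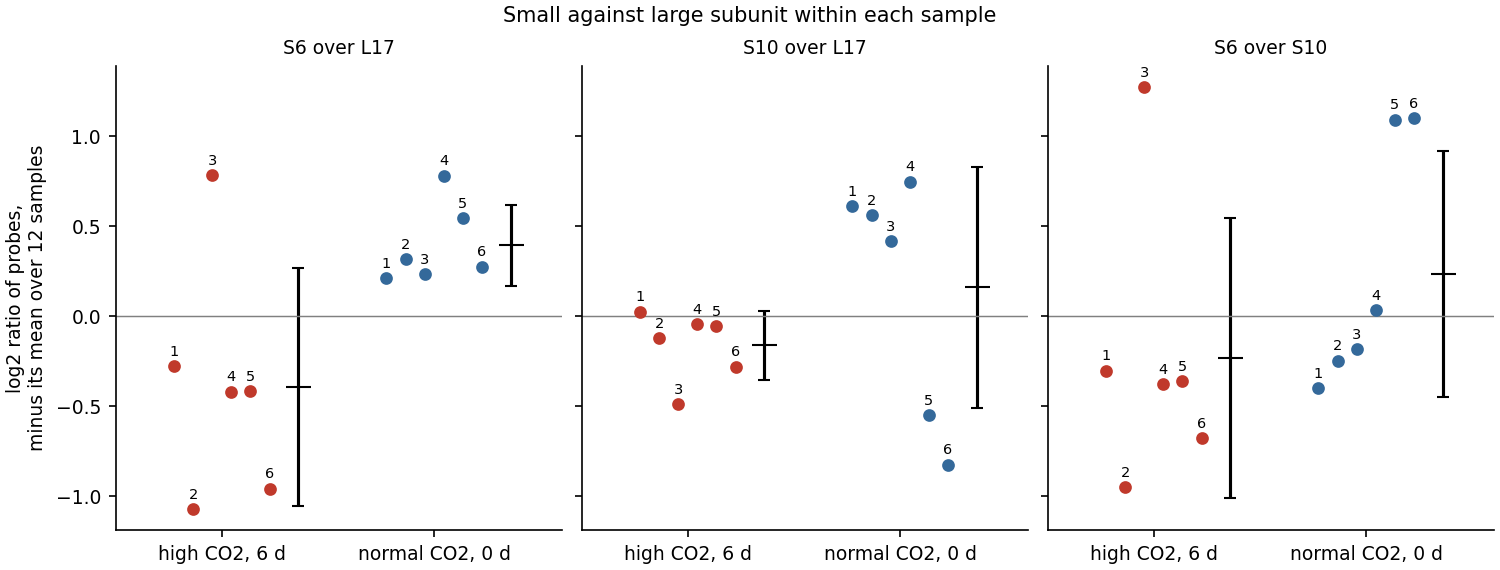
Log2 ratio of 2 probes in each sample, minus its mean over the 12 samples, for S6 over L17, S10 over L17 and S6 over S10, high CO2 left of normal CO2, with mean and SD as bars (n = 6 each). High-CO2 sample 3 stands above the rest of its group in S6 over L17 (0.78) and S6 over S10 (1.27), and normal-CO2 samples 5 and 6 stand below theirs in S10 over L17.

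The third question was whether the 3 transcripts rose and fell together over the samples. No such relation was detected. Over 3 pairs of genes and 4 sets of samples (all 12, each group of 6, and the 6 pair means), 12 relations in all, the smallest permutation p of Pearson's r was 0.169 and every adjusted p was 1. Because partner samples resemble repeats, the 12 samples are not 12 independent ones and the permutation p-values over them are too small.

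S6 and S10, both of the small subunit, had r = 0.0068 (permutation p = 0.983) and rho = 0.070 (p = 0.834) over the 12 samples. Without the 2 samples farthest from the S6 median r was -0.086. Over the 6 pair means r was 0.075 and rho was 0.26 (exact permutation p = 0.883 and 0.658). S6 and L17 had r = -0.19 (permutation p = 0.543) and rho = -0.20 (p = 0.544) over the 12 samples, r = -0.10 without the 2 samples farthest from the S6 median, and r = -0.18 and rho = 0.20 over the pair means (exact permutation p = 0.707 and 0.714).

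S10 and L17 had r = 0.16 (permutation p = 0.628) and rho = 0.14 (p = 0.669) over the 12 samples, and r = 0.15 without the 2 samples farthest from the S10 median. Within the groups, r was 0.68 and rho 0.43 in the 6 high-CO2 samples (exact permutation p = 0.169 and 0.419), and r was 0.10 and rho 0.37 in the 6 normal-CO2 samples (exact permutation p = 0.819 and 0.497). Over the pair means r was 0.20 and rho 0.086 (exact permutation p = 0.729 and 0.919), and r was -0.04 without the 2 farthest of them. The sign of this relation followed the scaling: r was -0.44 as deposited (permutation p = 0.149) and 0.73 after median scaling (permutation p = 0.012, not adjusted). Median scaling divides both genes by the same sample median. The part this has in the r of 0.73 was not tested.

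**Figure D4:**
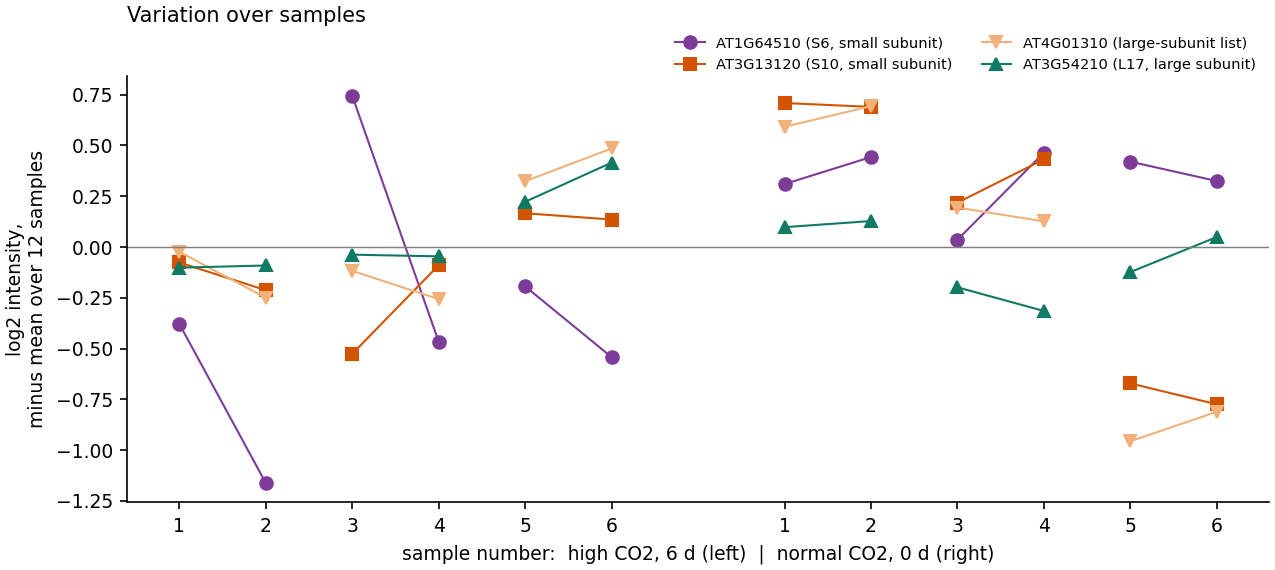
Log2 intensity of S6, S10, L17 and AT4G01310 in each sample, minus the mean of the gene over the 12 samples, high CO2 left of normal CO2; lines join samples 1 and 2, 3 and 4, and 5 and 6. S10 and AT4G01310 move together, both lowest in normal-CO2 samples 5 and 6, while S6 has its highest value in high-CO2 sample 3.

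Among other genes of the plastid ribosome, 42 loci were listed from general knowledge, 15 for the small and 27 for the large subunit with its associated proteins. Single-gene probes existed for 6 of them and 5 were tested. Of the 5, 0 passed, in a fit that 12.5% of all 3349 probes passed. Differences were positive for 3 and negative for 2, and the median log2 difference was 0.05, beside -0.02 for all probes. The negative ones were the small-subunit genes S6 and S10. The positive ones were the large-subunit genes: L17, AT4G01310 at 0.05 (adjusted p = 0.921) and AT1G29070 at 0.24 (adjusted p = 0.755). After median scaling L17 and AT4G01310 were negative too, at -0.33 and -0.26, so the split by subunit is not kept. The sign also turned for AT1G29070 without normal-CO2 sample 4, which is listed at 0 (-0.17), and for AT4G01310 without normal-CO2 sample 5 (-0.13) or 6 (-0.10) or high-CO2 sample 5 (-0.0055) or 6 (-0.04). AT5G65220, also listed for the large subunit, was listed at 0 in all 12 samples and was not tested.

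AT4G01310 varied over the samples much as S10 did. Its intensities were 0.563, 0.481, 0.527, 0.479, 0.716 and 0.801 in high-CO2 samples 1 to 6, against 0.862, 0.925, 0.655, 0.624, 0.295 and 0.326 in normal-CO2 samples 1 to 6. As for S10, normal-CO2 samples 5 and 6 were the lowest 2. Over the 12 samples r with S10 was 0.91, rank 12 among the 665 other genes compared. It was 0.81 as deposited, 0.94 after median scaling and 0.89 in samples 1 to 4 of both groups (n = 8). Within the groups it was 0.70 over the 6 high-CO2 samples and 0.98 over the 6 normal-CO2 samples, and the lowest rho of these settings was 0.64, as deposited. These values are a description because the gene was singled out. In samples 1 to 4 of each group, where 37.9% of probes passed, its log2 difference was -0.56 (limma adjusted p = 0.0255). In samples 5 and 6 the difference was 1.29 (limma adjusted p = 0.00753), over 2 samples a group that resemble repeats. That fit was passed by 48.7% of probes. The r of AT4G01310 was -0.03 with S6 and 0.41 with L17.

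AT1G29070 was dim, as was S6, and lay between 0.122 and 0.261 in the high-CO2 samples and between 0 and 0.356 in the normal-CO2 samples. None of the 13 plastid translation factors listed had a single-gene probe. Of 13 genes listed for plastid ribosome assembly and rRNA processing, 3 were tested and 0 passed, beside 12.5% of all probes. PAC (PALE CRESS), needed for plastid ribosome formation, averaged 0.231 ± 0.102 over the high-CO2 samples and 0.317 ± 0.0788 over the normal-CO2 samples (SD, n = 6 each; log2 difference -0.52, limma adjusted p = 0.237). Its difference was 0.10 as deposited. PAC passed as lower in samples 1 to 4 (-0.80, limma adjusted p = 0.0409), where 37.9% of probes passed. It also passed without high-CO2 samples 5 and 6 (-0.89, limma adjusted p = 0.0181), where 900 of 3349 probes passed. In samples 5 and 6 its difference was 0.03. AT2G25870 had 2 probes that disagreed in sign: the brighter had a log2 difference of 0.40 (adjusted p = 0.464; 0.84 and adjusted p = 0.0406 as deposited) and the other -0.29. As deposited, 391 of 3375 probes passed. The brighter had -0.40 in samples 1 to 4 (limma adjusted p = 0.0631). It had 1.9996 in samples 5 and 6 (limma adjusted p = 0.00402), where 48.7% of probes passed. AT5G46420 lay at the floor of 0.0398 set before taking log2 in all but 1 of the 12 samples.

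The genes with the pattern most like each member were found by Pearson's r over the 12 samples among 665 other named genes, as a description. For S6 they were AT1G76450, AT2G48130 and AT2G41120, with r of 0.76, 0.76 and 0.75. AT1G76450 averaged 0.200 ± 0.0368 over the high-CO2 samples and 0.354 ± 0.0793 over the normal-CO2 samples (SD, n = 6 each), a log2 difference of -0.81 with no test, since the gene was picked for its likeness to S6. For S10 they were PRK, the phosphoribulokinase of the Calvin-Benson cycle, AT1G29700 and AT5G56850, with r of 0.96, 0.94 and 0.94. For L17 they were AT5G27860, at the floor in 7 of 12 samples, CHLM, a methyltransferase of chlorophyll synthesis, and HEMA3, of the glutamyl-tRNA reductase family, with r of 0.80, 0.78 and 0.73. No gene was among the nearest of more than 1 member. Partner samples and sample scaling are shared by all genes, so these r values rest on fewer than 12 independent points.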

How the data were processed

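The authors deposited 1 table of 3439 probes in 12 samples. The deposited values were taken as linear intensities, since none is negative, 133 to 398 per sample are 0 and the top is close to 100 in every sample. How the array was made, read and normalized is not given in the sources used here. Probes were named through the platform annotation (692 with 1 gene, 870 with several, 1877 with none given), of which 690 matched RefSeq genes of TAIR10.1, used for names only.

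Quantile normalization (limma 3.58.1 under R 4.3.3) was applied because sample medians lay between 0.648 and 1.58 times the mean median. Zeros stayed at 0. Before taking log2, a floor of 0.0398 common to all samples replaced lower values (12.5% of them). Linear values in the text are those before the floor. 90 probes at the floor in all samples were left out, and lmFit and eBayes were fitted to 3349 probes with group as the only term. Adjusted p-values are Benjamini-Hochberg values over these probes, with a threshold of 0.05. Correlations used 100000 permutations for 12 samples and all orderings for 6 (scipy 1.17.1). On simulated samples with 200 of 3349 probes changed, 46% of the 2-fold and 85% of the 4-fold changes were found, beside 4 false calls. Those samples were independent, unlike the real partners.

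The 3 genes and the gene lists were chosen with earlier results of these data known. Named genes are the 3 genes, the tested members of the lists and the 3 most like genes of each. Ribosomal proteins of the cytosol and mitochondrion were not analysed here, since the gene table used holds no descriptions. Precision is limited by the number of arrays. Alternatives covered scaling, floor, filter, blocks, pair means, the variance model and samples left out.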

Additional observations from a re-analysis of the deposited data

Results flagged for a closer look

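A sample far from the rest of its group was looked for in 21 sets of 6 values, and 2 stood out, because the gap of 1 sample to its nearest neighbour was more than 0.625 of the whole range. Chance gives about 1 in 20 such groups if values are independent, which partner samples are not. Groups with values at the floor were not tested. The log2 ratio of S6 over S10 at high CO2 had sample 3 at 1.27, with the other 5 between -0.95 and -0.30 (share 0.708). For log2 intensities of S6 at normal CO2, sample 3 was lowest at -2.25 and the other 5 lay from -1.97 to -1.82 (share 0.639).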

How the results depend on the processing

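Fits on samples 5 and 6 alone were chosen after seeing the data; each gene had 1 probe, so no mean over probes was run. For every shift listed here the cause was not tested. The S6 difference (-0.67) passed without high-CO2 sample 3 (leaving out 1 sample gave -0.88 to -0.50) and in samples 5 and 6 alone (-0.74). The S10 difference (-0.20) passed as lower in samples 1 to 4 (-0.74) and without normal-CO2 samples 5 and 6 (-0.61), and turned to 0.87 in samples 5 and 6 alone; leaving out 1 sample gave -0.38 to -0.08. The L17 difference (0.12) turned to -0.33 after median scaling and -0.0088 without high-CO2 samples 5 and 6; leaving out 1 sample gave 0.05 to 0.16. In samples 5 and 6 alone the ratio of S10 over L17 (-0.32) was 0.52 and that of S6 over S10 (-0.47) was -1.61. The 418 probes passing (185 higher, 233 lower) were 326 higher and 65 lower as deposited (median log2 difference of all probes 0.45), and 85 and 246 after median scaling. They became 0 over pair means and 0 when limma took the pairs as a random effect (408 and 511 at unadjusted p under 0.05), 1270 without samples 5 and 6 of both groups, 900 without high-CO2 samples 5 and 6 and 1631 in samples 5 and 6 alone; leaving out 1 sample gave 230 (without high-CO2 sample 3) to 580 (without high-CO2 sample 5), with 266, 242, 240 and 270 without high-CO2 samples 1, 2 and 4 and normal-CO2 sample 5. Of the 5 tested plastid ribosomal protein genes, 0 passed over the 12 samples, beside 12.5% of all probes. In samples 1 to 4, 2 passed, beside 37.9% of all probes. Without normal-CO2 samples 5 and 6, 1 passed, beside 14.4%. In samples 5 and 6 alone 3 passed, beside 48.7%. When 1 sample was left out, 0 to 1 passed, beside 230 to 580 of the 3349 probes.

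Replicate numbers are shared by the groups, but same-numbered samples did not deviate together (r from -0.078 to 0.16, and 2 of 6 correlated best with their own number), so they are not read as pairs. With the replicate number as a block 460 probes passed, and S6, S10 and L17 did not (limma adjusted p = 0.162, 0.706 and 0.654).

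The correlations of S6 with S10 and of S6 with L17 changed sign in several settings, with no permutation p under 0.05. That of S6 and S10 (0.0068) was -0.19 as deposited, -0.17 for deviations from group means, -0.48 and -0.0013 within high and normal CO2, and -0.086 without the 2 farthest samples (leaving out 1 sample: -0.12 to 0.18). That of S6 and L17 (-0.19) was 0.12 as deposited, 0.067 with median scaling, 0.11 in samples 1 to 4 of both groups, 0.12 without high-CO2 samples 5 and 6, 0.0086 for deviations and 0.13 within normal CO2 (leaving out 1 sample: -0.39 to 0.015). That of S10 and L17 (0.16) turned to -0.44 as deposited. After median scaling it kept its sign, at 0.73 (permutation p = 0.012, not adjusted). Leaving out 1 sample gave 0.076 to 0.36.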
